A study of Mus musculus with 5 samples.

Results

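The 10 genes Mrc1, Folr2, Ccl17, Ccl24, Retnla, Chil3, Mgl2, Clec10a, Irf4 and Pdcd1lg2, named in the literature as markers of alternatively activated macrophages, were followed on 1-colour Agilent arrays of mouse peritoneal macrophages. They were chosen by symbol, as the non-control spots whose transcript accession maps to one of these names, and each had 1 probe, so they are 10 of the 21154 symbols found on the array. The arrays labelled c-JunΔLysM, called c-Jun-deleted here (numbers 1 and 9, n = 2), had the genotype cJunfl/fl LysMCre-/+, and the wild-type arrays (numbers 5, 11 and 14, n = 3) came from littermate controls, of which the labels do not say whether they carry floxed alleles. The mice were 8 weeks old, male or female, on a 129/C57Bl6 background, and no treatment is named. LysM-Cre is a recombinase placed in the lysozyme gene Lyz2, so it acts in macrophages, monocytes and neutrophils. The titles and genotypes give LysM-Cre, whereas the source names of the same samples give another Cre line, Mx. Lavage cells spent a night in culture, what floated was discarded and what adhered gave the RNA, with no sorting step named. Whether an array holds 1 animal or a pool is not stated, so the spread behind each p-value is that between arrays, which may be technical.

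Alternative activation is the state that macrophages enter under the type 2 cytokines IL-4 and IL-13. These bind receptors built on the IL-4 receptor alpha chain, Janus kinases then phosphorylate the transcription factor STAT6, and STAT6 turns on a set of genes that includes lectins, chemokines and secreted chitinase-like proteins. In the peritoneal cavity several of the same genes are also read as markers of cell subsets, because large resident macrophages, the smaller MHC class II-positive macrophages and dendritic cells differ in them without any added cytokine. AP-1, the dimer to which c-Jun belongs, binds short sites of its own in many promoters.

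RefSeq promoter windows (build GRCm38.p6, 250 bases before to 50 bases after an annotated start) were found for 8 of the 10 genes, 9 windows in all, since Folr2 has 2 starts; Ccl24 and Clec10a are named without one. The STAT6-type motif TTCNNNNGAA, whose reverse complement is the same, was in the window of 3 of the 8 genes, Ccl17 (positions -154 to -145 from the start), Retnla (-145 to -136) and Pdcd1lg2 (-82 to -73), and in 6.95% of all 32851 windows of 300 bases. The general STAT motif TTCNNNGAA was in those of Ccl17 and Chil3 (8.30% of all windows). The AP-1 motif TGANTCA, also its own reverse complement, was in 1 of the 8, at positions -74 to -68 of the second Folr2 start (7.81% of all windows). The cyclic AMP type motif TGACGTCA was in 0 of the 8 (1.79% of all windows) and the PU.1-type motif GAGGAAGT, read on both strands, was in that of Retnla alone (3.20%). The 4 windows that hold a STAT6-type or AP-1 match are shown, 5′ to 3′ on the gene's strand, and capitals mark these 2 motifs. Of the genes with the STAT6-type motif, Ccl17 and Retnla were lower and Pdcd1lg2 was not. Folr2, with the AP-1 motif, was lower. Mrc1, also lower, and Irf4, which was higher, had neither motif in their windows. The windows are descriptions of the letters and show no binding.
Ccl17, chr8:94810203-94810502, plus strand: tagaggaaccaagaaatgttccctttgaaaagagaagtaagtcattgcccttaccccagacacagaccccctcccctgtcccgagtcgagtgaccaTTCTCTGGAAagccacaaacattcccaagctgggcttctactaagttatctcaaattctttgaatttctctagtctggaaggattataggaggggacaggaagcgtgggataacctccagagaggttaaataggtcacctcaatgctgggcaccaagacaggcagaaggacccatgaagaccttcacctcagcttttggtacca
Retnla, chr16:48842359-48842658, plus strand: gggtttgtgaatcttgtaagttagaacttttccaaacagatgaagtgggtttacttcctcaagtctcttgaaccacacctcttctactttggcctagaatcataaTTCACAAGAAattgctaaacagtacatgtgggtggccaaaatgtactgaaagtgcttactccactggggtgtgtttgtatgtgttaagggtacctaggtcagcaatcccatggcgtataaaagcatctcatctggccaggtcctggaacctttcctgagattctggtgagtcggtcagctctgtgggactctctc
Pdcd1lg2, chr19:29410669-29410968, plus strand: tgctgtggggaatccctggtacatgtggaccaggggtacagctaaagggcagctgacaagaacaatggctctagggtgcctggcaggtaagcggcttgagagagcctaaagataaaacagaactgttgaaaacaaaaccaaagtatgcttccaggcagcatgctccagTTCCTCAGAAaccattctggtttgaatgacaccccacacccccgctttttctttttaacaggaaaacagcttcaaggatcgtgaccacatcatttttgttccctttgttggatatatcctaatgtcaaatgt
Folr2, second start, chr7:101845282-101845581, minus strand: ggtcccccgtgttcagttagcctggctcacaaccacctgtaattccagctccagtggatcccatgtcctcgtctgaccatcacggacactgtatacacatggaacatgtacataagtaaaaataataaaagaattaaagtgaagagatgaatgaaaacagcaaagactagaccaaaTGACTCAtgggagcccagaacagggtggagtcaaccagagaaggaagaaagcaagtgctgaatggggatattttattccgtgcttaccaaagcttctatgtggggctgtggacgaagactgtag

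Values are log2 of the processed spot signal relative to the array's 75th percentile, so 0 is the brightness below which 75% of the non-control spots lie. All 10 genes were well above background on all 5 arrays, none was saturated, and 52.2% to 59.9% of the probes of an array were this bright. Of the macrophage markers, which include Adgre1, Csf1r and Cd68, 8 of 8 were measured, 3 higher and 5 lower, with a summed linear level of 623 and 899 in c-Jun-deleted and 889 to 1241 in wild-type cells; without Lyz2 the sums were 600.5 and 533 in c-Jun-deleted and 455 to 682 in wild-type cells, which overlap. Lyz2 stood apart at 4.46 on c-Jun-deleted 1, against 8.52 on c-Jun-deleted 9 and 8.70 to 9.18 in wild-type. Jun was at 2.76 and 2.71 in c-Jun-deleted cells and at 3.21, 3.75 and 3.17 in wild-type cells (log2 difference -0.64, SE 0.23, limma adjusted p = 0.391), from a probe whose place inside or outside the floxed segment was not checked. Xist, which is transcribed from the inactive X chromosome of females, was at -4.53 on wild-type 11 and between -0.037 and 0.74 on the other arrays, so the sexes were not balanced. Uty, a Y chromosome gene, was well above background on 2 arrays. It was at -2.06 on wild-type 11, -3.97 on wild-type 14 and between -7.73 and -5.46 on the other arrays. Whether wild-type 14 holds cells of both sexes was not tested. The 2 slides each held both genotypes: slide 1 held c-Jun-deleted 1 and wild-type 5, and slide 2 held c-Jun-deleted 9 with wild-type 11 and 14. With so few arrays precision is low, and the smallest p that exact permutation over the 5 arrays allows is 0.1, so none was run.

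Mrc1 and Folr2, surface receptors, were lower in c-Jun-deleted macrophages. Mrc1 encodes the mannose receptor, an endocytic lectin and one of the most used alternative activation markers. It was at 1.49 and 1.00 in c-Jun-deleted macrophages, against 2.55, 3.81 and 2.78 in wild-type macrophages. Both c-Jun-deleted arrays lay below every wild-type array, with the wild-type 11 value highest. The difference was -1.80 (SE 0.44, 95% interval -2.95 to -0.66), a 3.49-fold lower level, with an unadjusted p of 0.0102 and limma's Benjamini-Hochberg adjusted p = 0.280 over all genes. Within slide 1 it was -1.07 and within slide 2 it was -2.29, so it lay on the same side on each. In bulk RNA, fewer cells of a type and less RNA per cell cannot be told apart.

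Folr2, the folate receptor beta of tissue macrophages, was at -0.28 and -0.17 in c-Jun-deleted macrophages, against 1.53, 2.60 and 0.92 in wild-type macrophages. The groups did not overlap, and the c-Jun-deleted arrays differed from each other by 0.11, while the wild-type arrays spanned 1.68. The difference was -1.91 (SE 0.52, 95% interval -3.25 to -0.56), 3.75-fold lower, with limma's adjusted p = 0.300. It was -1.81 within slide 1 and -1.93 within slide 2. Markers of the Folr2- and Lyve1-bearing tissue macrophages were read beside it: 9 of 10 were measured, 7 lower and 2 higher, with a median difference of -0.28 (-0.51 without wild-type 11), and their summed linear level was 121 and 122 in c-Jun-deleted and 82.6 to 144 in wild-type cells. The probe of Lyve1 itself was below that brightness on all 5 arrays. The part of such cells in the Folr2 difference was not tested.

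Retnla and Ccl17, which encode secreted proteins, were lower as well. Retnla encodes RELM alpha, a small secreted protein that IL-4 induces strongly in mouse macrophages. It was at 3.44 and 3.43 in c-Jun-deleted macrophages, against 5.84, 5.15 and 4.14 in wild-type macrophages. The c-Jun-deleted values were 0.0074 apart and lay below a wild-type range of 1.70. The difference was -1.62 (SE 0.52, 95% interval -2.97 to -0.26), 3.06-fold lower, with limma's adjusted p = 0.358. Within slide 1 it was -2.41 and within slide 2 it was -1.22.

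Ccl17, a chemokine that draws CCR4-bearing T cells and is made by dendritic cells and alternatively activated macrophages, was at -0.13 and -1.13 in c-Jun-deleted macrophages. In wild-type macrophages it was at 0.60, 1.49 and 0.58. The groups did not overlap, although c-Jun-deleted 9 lay 1.00 below c-Jun-deleted 1. The difference was -1.52 (SE 0.44, 95% interval -2.68 to -0.37), 2.87-fold lower, with limma's adjusted p = 0.322. It was -0.73 within slide 1 and -2.17 within slide 2, so its size rested more on c-Jun-deleted 9: leaving that array out gave -1.02, and leaving out c-Jun-deleted 1 gave -2.02.

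**Figure D1:**
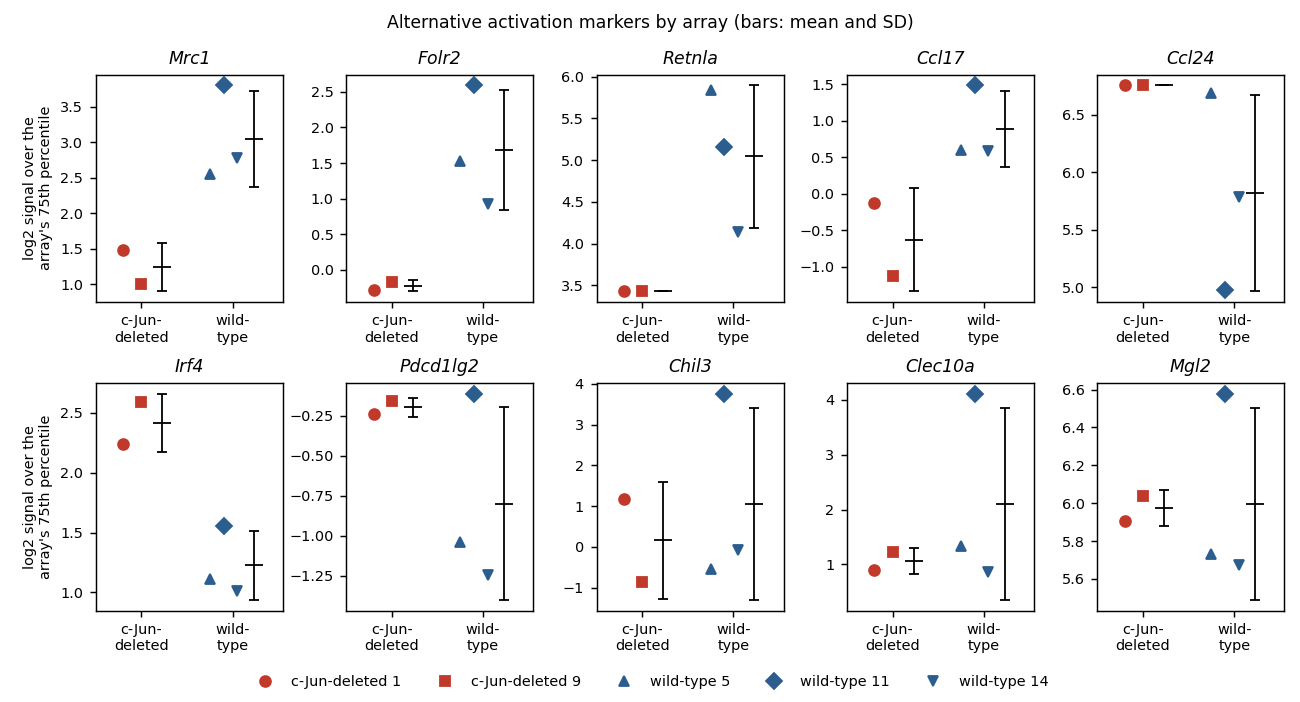
Each panel plots the log2 signal of 1 gene over the array's 75th percentile, with c-Jun-deleted arrays in red at the left, wild-type arrays in blue at the right and the mean and SD beside each group; vertical scales differ between panels. Mrc1, Folr2, Retnla and Ccl17 lie below every wild-type array on both c-Jun-deleted arrays, Ccl24 and Irf4 lie above, and wild-type 11 is the highest array for 7 of the 10 genes.

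Ccl24, the chemokine eotaxin 2, which attracts eosinophils, went the other way. It was at 6.76 on each c-Jun-deleted array, against 6.69, 4.98 and 5.78 in wild-type macrophages. The groups did not overlap, but wild-type 5 lay just under the c-Jun-deleted arrays and the difference was 0.070 within slide 1 and 1.37 within slide 2. The difference was 0.94 (SE 0.52, 95% interval -0.41 to 2.29), 1.92-fold higher, with limma's adjusted p = 0.503. Without wild-type 11 it was 0.52. Its order among the wild-type arrays was unlike that of the other chemokine, Ccl17: wild-type 11 was lowest for Ccl24 and highest for Ccl17.

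Irf4, a transcription factor that acts downstream of STAT6 in macrophages and is also used by dendritic cells, B cells and plasma cells, was higher. It was at 2.24 and 2.59 in c-Jun-deleted macrophages, against 1.11, 1.56 and 1.01 in wild-type macrophages. The groups did not overlap, and the wild-type range of 0.55 was the narrowest of the 10 genes. The difference was 1.19 (SE 0.24, 95% interval 0.57 to 1.81), 2.28-fold higher, with an unadjusted p of 0.00452, the smallest of the 10, and limma's adjusted p = 0.231. It was 1.13 within slide 1 and 1.31 within slide 2. B cell markers were higher too: 12 of 12 were measured and all lay above the wild-type range, with a median difference of 2.49. Their summed linear level was 286 and 416 in c-Jun-deleted cells, and 86.1, 66.7 and 43.7 on wild-type 5, 11 and 14. Among the wild-type arrays Irf4 was highest on wild-type 11. The part of B cells in the Irf4 level was not tested.

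Pdcd1lg2 encodes PD-L2, a ligand of the inhibitory receptor PD-1 that IL-4 induces on macrophages and dendritic cells and that B-1 cells also carry. It was at -0.24 and -0.16 in c-Jun-deleted macrophages, against -1.04, -0.11 and -1.25 in wild-type macrophages. Wild-type 11 lay above both c-Jun-deleted arrays and the other 2 wild-type arrays below them, so the groups overlapped. The difference was 0.60 (SE 0.38, 95% interval -0.39 to 1.59) with limma's adjusted p = 0.549, and it was 0.80 within slide 1, 0.52 within slide 2, 0.94 without wild-type 11 and 0.38 without wild-type 14. The B cell values given for Irf4 stand beside this gene too, and their part in it was not tested.

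**Figure D2:**
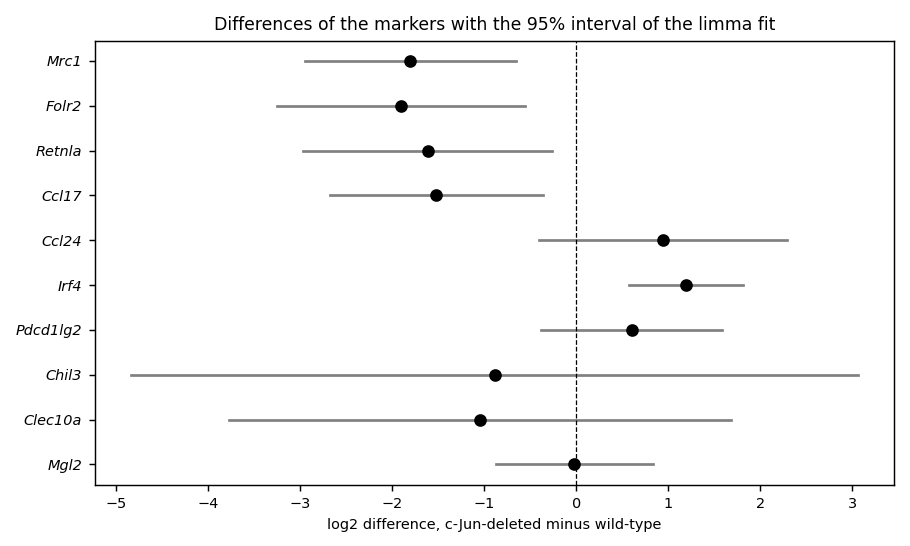
Points give the log2 difference, c-Jun-deleted minus wild-type, of each gene and lines the 95% interval of the limma fit, with 2 and 3 arrays in the groups. The intervals of Mrc1, Folr2, Retnla and Ccl17 lie below 0 and that of Irf4 lies above 0 before any adjustment over genes; those of the other 5 genes cross 0, and that of Chil3 runs from -4.84 to 3.06.

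Chil3, Clec10a and Mgl2 did not separate the genotypes. Chil3 encodes Ym1, a chitinase-like secreted lectin of mouse macrophages. It was at 1.18 and -0.86 in c-Jun-deleted macrophages, against -0.54, 3.76 and -0.067 in wild-type macrophages. Wild-type 11 was far above the rest and c-Jun-deleted 1 came next, so the c-Jun-deleted pair differed by 2.04 on the log2 scale and wild-type arrays spanned 19.6-fold. The difference was -0.89 (SE 1.52, 95% interval -4.84 to 3.06) with limma's adjusted p = 0.828. It had no settled sign: 1.72 within slide 1 and -2.70 within slide 2, and it was 0.47 with wild-type 11 left out and 0.13 with c-Jun-deleted 9 left out.

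Clec10a and Mgl2 encode the macrophage galactose-type lectins, a pair of related receptors whose genes are neighbours in the RefSeq annotation. Clec10a was at 0.89 and 1.23 in c-Jun-deleted macrophages, against 1.33, 4.11 and 0.86 in wild-type macrophages. All arrays but wild-type 11 lay within 0.47 of each other. The difference was -1.04 (SE 1.05, 95% interval -3.77 to 1.68, limma's adjusted p = 0.695), and without wild-type 11 it was -0.036.

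Mgl2 was at 5.91 and 6.04 in c-Jun-deleted macrophages, against 5.73, 6.58 and 5.67 in wild-type macrophages. Here too wild-type 11 was highest, but it stood 1.87-fold above the lowest wild-type array, whereas for Clec10a that spread was 9.52-fold. The Mgl2 difference was -0.021 (SE 0.33, 95% interval -0.87 to 0.83, limma's adjusted p = 0.984), with 0.18 within slide 1 and -0.086 within slide 2, and its sign changed with the scaling. Cross-hybridisation between the pair was not tested.

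**Figure D3:**
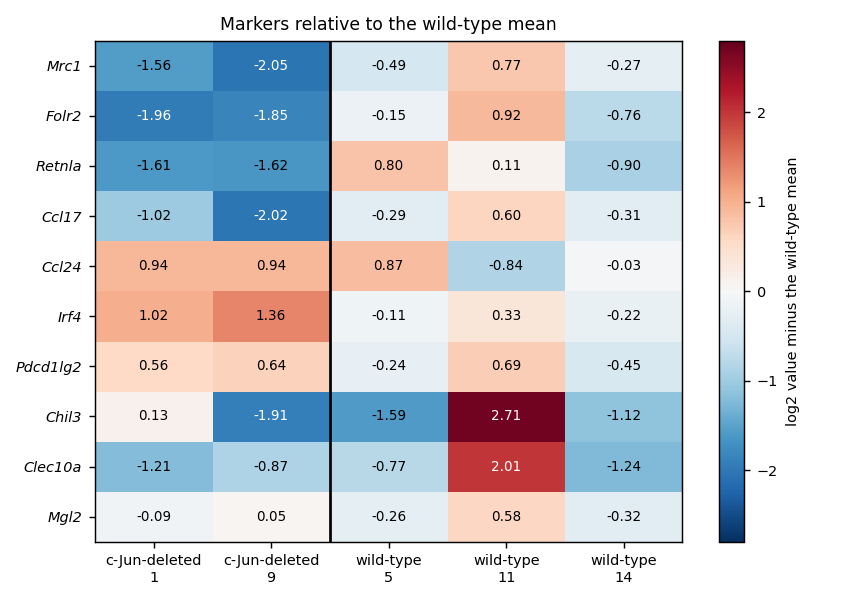
Cells give the log2 value of each gene on each array minus its wild-type mean, with c-Jun-deleted arrays left of the black line and wild-type arrays right of it. Mrc1, Folr2, Retnla and Ccl17 lie at -1.02 to -2.05 on both c-Jun-deleted arrays, while for Chil3 and Clec10a the largest departure is that of wild-type 11, at 2.71 and 2.01.

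Read as a set, 7 of the 10 genes were lower and 3 higher in c-Jun-deleted macrophages, beside 61.4% of all genes tested lower. None had an adjusted p below 0.05 in limma, nor did any other of the 27979 genes tested (0%). At an unadjusted p below 0.05, 4 of the 10 were lower (Mrc1, Folr2, Ccl17 and Retnla) and 1 higher (Irf4). Over all genes tested these shares were 6.52% and 5.61%. The 10 were chosen with earlier results of these data known, so such shares do not test the set. Groups did not overlap for 4 lower and 2 higher genes of the 10, against 20.2% and 13.3% of all genes tested, and the 4 lower genes were also at least 2-fold lower, which with non-overlap held for 4.27% of all genes tested (2-fold lower alone, 6.54%). The median difference of the 10 was -0.97, beside -0.092 over all genes tested. The count of 5 genes at an unadjusted p below 0.05 was 1 without c-Jun-deleted 9 (Irf4), 3 without c-Jun-deleted 1 (Mrc1, Ccl17 and Irf4) and 2 within slide 2 (Mrc1 and Ccl17). With wild-type 11 left out it was again 5, with Pdcd1lg2 in place of Retnla. With 1 array left out the median of the 10 was 0.12 (wild-type 11), -0.56 (c-Jun-deleted 9) or -1.56 (wild-type 14), and within slide 1 it was -0.18.

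**Figure D4:**
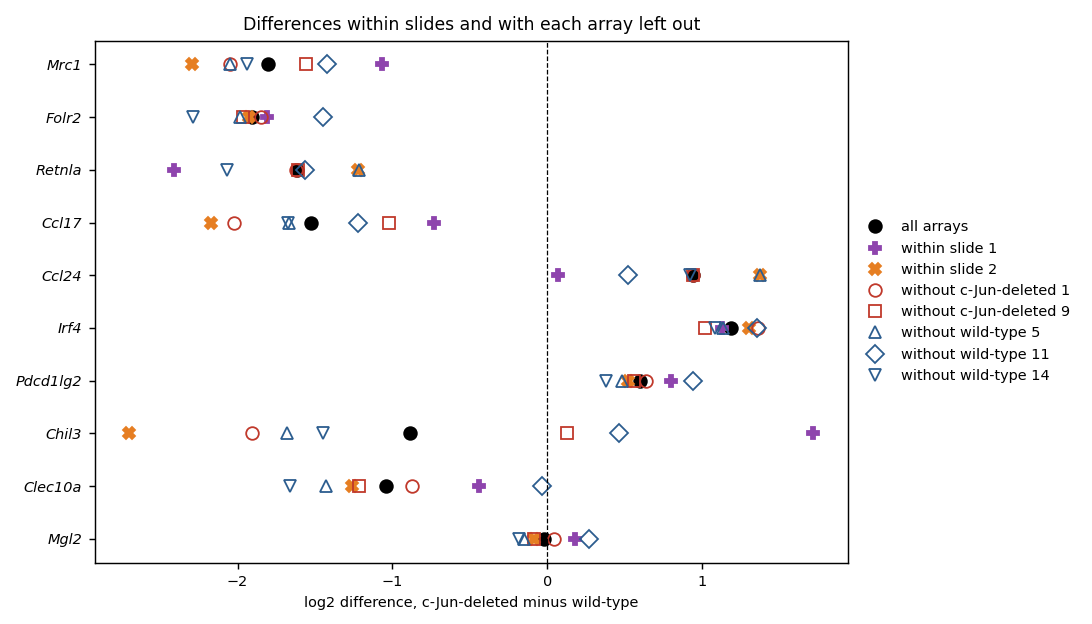
For each gene the log2 difference, c-Jun-deleted minus wild-type, is plotted over all arrays (black), within each slide (crosses) and with each array left out (open symbols). Mrc1, Folr2, Retnla and Ccl17 stay left of 0 and Ccl24, Irf4 and Pdcd1lg2 stay right of 0 in every one of these settings, Chil3 and Mgl2 fall on both sides, and Clec10a reaches -0.036 without wild-type 11.

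The sign was the same within both slides for 8 of the 10 genes, and the same 8 kept it under all 18 alternatives that gave a value. Chil3 and Mgl2 were the exceptions. Not all of the 18 could change it. Each gene had 1 probe, 0 flagged spots and a signal well above background on all 5 arrays. The other filters, outlier spots kept and every probe as its own feature therefore returned the same difference. The block on source numbers repeats the differences without wild-type 14, and the 18 count the authors' table. Centring arrays on their median moved the median difference of all genes to 0.12, a shift of the whole scale, and under it Mrc1, Folr2, Ccl17, Retnla and Irf4 were at -1.59, -1.70, -1.31, -1.40 and 1.40. The authors' deposited table, which holds 1 mean per group for 5 of the 10 genes, gave the same differences. They were -1.80 for Mrc1, -1.91 for Folr2, -1.52 for Ccl17, -1.62 for Retnla and 1.19 for Irf4. The header of that table names 1 more wild-type array. For 1692 of its 1709 probes the difference still lay within 0.001 of that from the 5 arrays with the same scaling, so it is no separate check.

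Wild-type 11, the array with low Xist, was the highest wild-type array for 8 of the 10 genes and the highest of all arrays for 7. Marker lists of small and large peritoneal macrophages also stood apart on it, and T and NK cell markers stood apart only from the other wild-type arrays. Of 20 markers of small peritoneal macrophages and dendritic cells 17 were measured. Their summed linear level was 568 and 694 in c-Jun-deleted cells, 1077 on wild-type 11, and 486 and 470 on wild-type 5 and 14. That sum rests mainly on the MHC class II genes H2-Eb1, H2-Ab1 and H2-Aa, and the part of B cells in their level was not tested. Of the 17, 10 were higher and 7 lower, from -2.45 for Fcgr4 to 1.83 for Napsa. The median difference was 0.24, and without wild-type 11 it was 0.67 with 12 higher. Of 16 markers of large peritoneal macrophages 15 were measured, with a summed level of 530 and 628 in c-Jun-deleted cells (13 of the 15 higher, median difference 0.99, but 10 of the 15 and 0.28 without wild-type 11), 209 on wild-type 11, and 505 and 323 on wild-type 5 and 14. Over all arrays 7 of the 15 lay above every wild-type array and 0 below, against 13.3% and 20.2% of all genes tested. At limma's unadjusted p below 0.05, 5 were higher and 0 lower, against 5.61% and 6.52%. T and NK cell markers (11 of 12 measured) summed to 22.5 and 32.1 in c-Jun-deleted cells, 38.4 on wild-type 11, and 11.9 and 12.1 on the other wild-type arrays. Xcr1, of the first list, was not well above background. Without wild-type 11 the differences of Mrc1, Folr2, Retnla, Ccl17 and Irf4 were -1.42, -1.45, -1.56, -1.22 and 1.35.

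Other cells that could adhere or be carried over were read the same way. Mesothelial and stromal markers (8 of 10 measured, all lower) summed to 1.35 and 1.77 in c-Jun-deleted and 1.81 to 5.08 in wild-type cells. Mast cell markers (7 of 8 measured, all higher) summed to 98.3 and 92.3 in c-Jun-deleted and 41.2 to 121 in wild-type cells, and neutrophil markers (8 of 10) to 17.9 and 11.5 in c-Jun-deleted and 15.3 to 19.4 in wild-type cells. Eosinophil markers (5 of 8, 2 higher and 3 lower, median difference -0.16) summed to 4.73 and 7.93 in c-Jun-deleted and 2.05 to 4.87 in wild-type cells. Without Il5ra, which B-1 cells carry too, they summed to 1.58 and 1.87 in c-Jun-deleted and 1.02 to 3.52 in wild-type cells, and the granule genes Epx, Prg2 and Prg3 were not well above background. Red cell and globin markers (4 of 8, 3 higher) summed to 10.3 and 22.2 in c-Jun-deleted and 0.52 to 1.35 in wild-type cells. The part of these cells in the levels of the 10 genes was not tested.

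The IL-4 and IL-13 pathway around these genes was read from 3 lists, 54 genes of which 51 were measured; 38 were lower and 13 higher in c-Jun-deleted macrophages, and 0 passed limma's adjusted threshold. Over all genes tested 61.4% were lower. At an unadjusted p below 0.05 there were 6 lower and 2 higher genes of the 51, beside 6.52% and 5.61% of all genes tested. These lists too were chosen with earlier results known. Among 17 receptor and signalling genes 13 were lower, with a median difference of -0.49. Il4ra, the receptor chain shared by both cytokines, was at 1.69 and 1.34 in c-Jun-deleted macrophages, against 3.06, 1.81 and 3.64 in wild-type macrophages (-1.32, SE 0.57, limma's adjusted p = 0.438). Its groups did not overlap, by a gap of little more than 0.1 to wild-type 11. Il13ra1, which pairs with it to bind IL-13, was at -0.067 and -0.56 in c-Jun-deleted cells, against 0.65, 0.34 and 1.21 in wild-type cells (-1.04, SE 0.32, limma's adjusted p = 0.345). Stat6 lay at 2.86 and 2.84 in c-Jun-deleted cells, against 3.00, 2.98 and 3.13 in wild-type cells (-0.19, SE 0.14, limma's adjusted p = 0.595), and with median centring its difference was 0.024. Il33, an alarmin that promotes type 2 responses, was at -4.52 on c-Jun-deleted 1 and not well above background on c-Jun-deleted 9, against -3.38, -1.73 and -3.28 in wild-type cells (-2.81 with the dim value counted, limma's adjusted p = 0.338). The size of the Il33 difference was not settled, at -1.72 without c-Jun-deleted 9, -1.13 within slide 1 and -0.88 with normexp and quantile normalization.

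Among 12 transcription factors of alternative activation 9 were lower, with a median of -0.26 (-0.048 with median centring and -0.11 within slide 1). Cebpb, which drives Arg1 and other alternative activation genes, was at 6.07 and 5.96 in c-Jun-deleted macrophages, against 6.69, 6.30 and 6.88 in wild-type macrophages (-0.61, SE 0.22, limma's adjusted p = 0.393, and -0.40 with median centring). The lipid-sensing nuclear receptor Pparg and the STAT6 partner Klf4 had overlapping groups, at -0.75 (SE 0.65) and -0.20 (SE 0.31), and Pparg was at -0.15 without wild-type 11 and -1.17 without wild-type 14. Among 22 other IL-4 response genes 16 were lower, with a median of -0.52. The 3 at an unadjusted p below 0.05 were Ch25h, an enzyme that makes an oxysterol (-2.78, not well above background on c-Jun-deleted 9), the interleukin 1 receptor antagonist Il1rn (-1.49) and the macrophage elastase Mmp12 (-1.43). Ch25h was at -1.63 within slide 1 and -1.01 with normexp and quantile normalization. Il1rn was at -0.88 without c-Jun-deleted 9, -0.55 within slide 1 and -2.28 within slide 2, and Mmp12 at -0.45 within slide 1 and -2.16 within slide 2. Higher were Alox15, the lipoxygenase of resident peritoneal macrophages, at 6.48 and 6.55 in c-Jun-deleted cells, against 5.76, 3.75 and 5.05 in wild-type cells (1.66, SE 0.61, and 0.71 within slide 1), and Cd83, a marker of mature dendritic and B cells (0.83, SE 0.24). Limma's adjusted p of these 5 ran from 0.224 to 0.401. Arg1, arginase 1, had overlapping groups at 5.52 and 4.12 in c-Jun-deleted cells, against 5.73, 3.70 and 5.93 in wild-type cells (-0.30, SE 0.85), and its sign changed with the array left out.

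**Figure D5:**
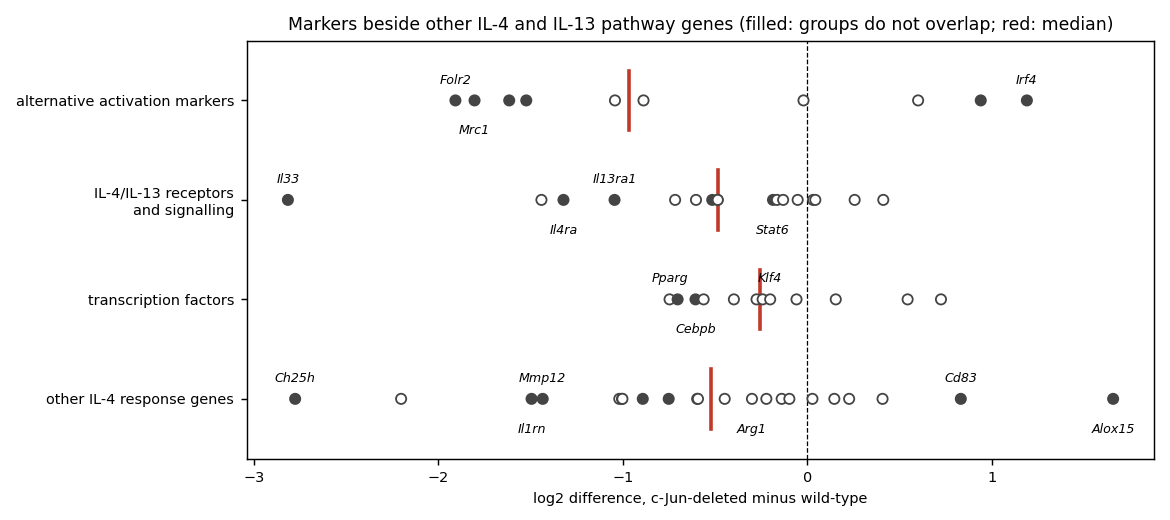
Each point is the log2 difference, c-Jun-deleted minus wild-type, of 1 gene, in rows for the 10 alternative activation markers and the 3 pathway lists; filled points are genes whose groups do not overlap and red bars are medians. The 4 rows have medians of -0.97, -0.49, -0.26 and -0.52, and each spans both sides of 0.

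The genes varied among themselves in more than one way. By the root mean square difference of their array-centred log2 values over the 5 arrays, Mrc1 and Ccl17 were the closest pair (0.24), followed by Mgl2 and Pdcd1lg2 (0.31), Folr2 and Mrc1 (0.34) and Pdcd1lg2 and Irf4 (0.36). Retnla was nearest to Folr2 (0.58), Ccl24 to Irf4 (0.71), Clec10a to Folr2 (0.74) and Chil3 to Clec10a (0.90). The same measure against the median profile of the 10 put Capn9 (0.085), Cyb561 (0.11), Oip5 (0.11), Sapcd2 (0.12) and Ulbp1 (0.13) nearest among 12848 other named genes measured on every array. That profile was lowest on c-Jun-deleted 9, at -0.71, and highest on wild-type 11, at 0.98. These names are a description over 5 arrays, with no test.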

How the data were processed

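RNA of adherent peritoneal macrophages was measured on 5 arrays, 2 c-Jun-deleted and 3 wild-type, grouped by title. The deposited scanner files hold spot intensity as Feature Extraction 11.5.1.1 wrote it, background-subtracted and without scaling between arrays, and 0 or 1 flags (an other kind of value), per the file headers. The authors' deposited table gives a single log2 value per group, shifted to the 75th percentile as its name says. Its per-probe baseline and centring stay unknown (column medians 1.19 for c-Jun-deleted and 0.54 for wild-type), so its difference alone was used; for 1692 of its 1709 probes this lay within 0.001 of the difference computed here. Its header names 1 more wild-type array, not analysed here.

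Here log2 of the processed signal minus log2 of each array's 75th percentile (437 to 596) was taken. Spots with outlier flags were left out and spots of 1 probe averaged. Probes well above background on at least 2 arrays were kept, a filter that all 10 genes passed on all 5. Accessions were named through a RefSeq table of assembly GRCm38.p6, whereas the arrays were designed on mm9, so coordinates are given for RefSeq promoters alone. Each symbol was its brightest probe, for 27979 genes tested with limma 3.58.1 in R 4.3.3 (2-sided, no covariate, Benjamini-Hochberg over all genes, threshold 0.05). The fit was tested on simulated data with the arrays' own means and spreads, where many true changes of the smaller simulated sizes missed the adjusted threshold. The smallest simulated log2 change was 2, above the size of the difference over all arrays of each of the 10 genes. Every difference is the c-Jun-deleted mean less the wild-type mean. A summed linear level adds 2 to the power of the log2 values of a list's measured genes.

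The genes and lists were chosen with earlier results of these data known. Named beyond the 10 were pathway genes at an unadjusted p below 0.05, Stat6, Il4ra, Pparg, Klf4 and Arg1, and the 5 genes nearest in pattern. Alternatives were normexp (offset 50, on the median spot signal) with quantile normalization, quantile normalization, median centring, other filters, outlier spots kept, every probe as its own feature, the slide or source number as a block, values within slides, array weights and each array left out. Marker lists without Il5ra, Lyz2 or wild-type 11 were added after seeing the data.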

Additional observations from a re-analysis of the deposited data

How the results depend on the processing

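Mrc1, Folr2, Retnla, Ccl17, Clec10a, Ccl24, Irf4 and Pdcd1lg2 kept their sign under every alternative that gave a value, though some of these could not change it. In the fits with at least 2 arrays in each group, 0 of the 10 genes passed limma's adjusted threshold. Within slide 1, with 1 array in each group, no p-value could be computed. Mgl2, at -0.021, was at 0.13 with normexp, 0.11 with quantile normalization, 0.19 with median centring, 0.026 with the slide as a block, 0.18 within slide 1 and 0.15 with array weights, and from -0.18 to 0.27 with single arrays left out. Chil3 was at 1.72 within slide 1, 0.053 with array weights and from -1.91 to 0.47 with single arrays left out. The median of the 10 was -0.18 within slide 1, -0.24 with array weights and from -1.56 to 0.12 with single arrays left out. Genes at an unadjusted p below 0.05 numbered 2 of the 10 within slide 2, and 1 to 6 with single arrays left out. Over all genes, 178 passed with median centring and 1 with array weights; 1838 lay below an unadjusted 0.05 within slide 2, where the lone c-Jun-deleted array takes its spread from wild-type, and 1700 to 4500 with single arrays left out, against 3395. Lower genes were 53.7% of the 3395; median centring gave 21.0%, normexp 38.8% and quantile scaling 38.0%.

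The receptor and signalling median was -0.28 with normexp, -0.27 with median centring, -0.34 without the filter on dim probes, -0.19 for genes measured on all arrays, -0.14 within slide 1, -0.73 within slide 2 and -0.21 with array weights. The IL-4 response median was -0.31, -0.31, -0.37 for genes measured on all arrays and -0.17 within slide 1, the first 2 with normexp and median centring. With single arrays left out these medians ran from -0.57 to -0.17 and from -0.64 to -0.21. Klf4 was at 0.0091 and Stat6 at 0.024 with median centring; with single arrays left out Klf4 ran from -0.38 to 0.056 and Arg1 from -1.01 to 0.40. The numbers 1 and 2 in the source names are shared by both groups, but they follow the slides and nothing says that they mark shared litters or days. Wild-type 14 has a number of its own, so a block on these numbers takes that array up. Its differences are therefore those found with wild-type 14 left out. With the numbers as a replicate block the median of the 10 was -1.56, the receptor median -0.30 and Arg1 0.11. It gave 4 of the 10 genes at an unadjusted p below 0.05 and 0 genes called. Deviations from the group mean correlated at -0.069 for the first pair and 0.19 for the second, over genes. For c-Jun-deleted 1 and wild-type 14, which share no number, the correlation was 0.26. The c-Jun-deleted arrays deviate from their mean by equal and opposite amounts, so these correlations cannot show pairing. The cause of these changes was not tested.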
